A study of Brassica rapa with 28 samples.

Results

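In Brassica rapa leaves, 100 genes were followed whose transcripts fell in a leaf kept dark and were still low after that leaf had been back in light for a day. The members were selected on measured values, the counts of the wild-type libraries, from 48826 gene IDs. A gene qualified with a wild-type mean of at least 5 CPM (the count scaled to a library total of 1000000) at pre, at least 0.5 CPM at dark, and a fall from pre to dark of at least 1 in log2(CPM + 1), called the log2 level here. Of the 3027 genes that qualified, the 100 with the lowest score were kept, where the score is the larger of the differences in log2 level of recovery minus pre and recovery minus 24hr. All 100 passed the filter on low counts, and each passed through groups in which the rule required it to be high.

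RNA was measured by sequencing of poly(A) RNA from leaf punches of 28 mm2 of strain R-o-18, with both genotypes in that strain: wild type and the BrphyB-3 mutant, in which a phytochrome B photoreceptor gene is mutated. A biological replicate pooled punches of 3 plants that were 3 weeks old at the start, and plants grew in 16 h light and 8 h dark, and were harvested 5 h into the light period. An uncovered leaf gave the pre sample and, 24 h later, the 24hr sample, and the dark sample came from a second leaf wrapped in foil for the 72 h before it was taken. The recovery sample was taken from that second leaf 24 h after unwrapping, 96 h after pre. Each stage had 4 wild-type pools (replicates 3 to 6) and 3 mutant pools (replicates 3 to 5). The mutant is a single line, and no marker gene could be checked, because the files do not pair gene IDs with names.

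Phytochrome B is a red-light photoreceptor that switches between an inactive and an active form, and in Arabidopsis its active form restrains transcription factors that promote growth in shade and darkness. A mature leaf that is darkened while the rest of the plant stays lit is known to lower transcripts of photosynthesis and chlorophyll synthesis and to raise those of nutrient breakdown. Return to light is known to restore much of the lit state within a day. Because the IDs carry no names, no member can be given a role here.

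Total counts per library ranged from 4928822 to 14159657. The 100 genes took between 1.28% and 1.64% of the counts of a wild-type library at pre, between 0.209% and 0.366% at dark and between 0.371% and 0.618% at recovery. In the mutant, which the rule did not use, they took between 0.968% and 1.33% at pre, between 1.1% and 1.47% at 24hr, between 0.224% and 0.395% at dark and between 0.322% and 0.701% at recovery. The mutant ranges at dark and recovery overlapped, and both lay below all mutant libraries at pre and 24hr. These shares are sums in which abundant members weigh most. The most abundant member averaged 2420 CPM at pre, 776 CPM at dark and 1591 CPM at recovery in the mutant. In bulk tissue, fewer cells of a type and less RNA per cell cannot be told apart.

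In the wild type the values that chose the members were as follows, as a description. Mean levels at pre ran from 5.42 to 3631 CPM with a median of 36.6 CPM; 29 members were at 100 CPM or more and 35 were below 20 CPM. The median fell to 4.55 CPM at dark and stood at 10.1 CPM at recovery. The other 2927 qualifying genes, called the other dark-lowered genes here, had nearly the same median at pre, 35.0 CPM, then 7.75 CPM at dark and 34.4 CPM at recovery. The scores ran from -3.27 to -1.14, the value of the members ranked 99 and 100, and the genes ranked 101 and 102, just outside, both had -1.13. In 90 of the 100 members recovery was below pre in 4 of 4 wild-type pools, and in 95 it was below 24hr in 4 of 4.

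**Figure D1:**
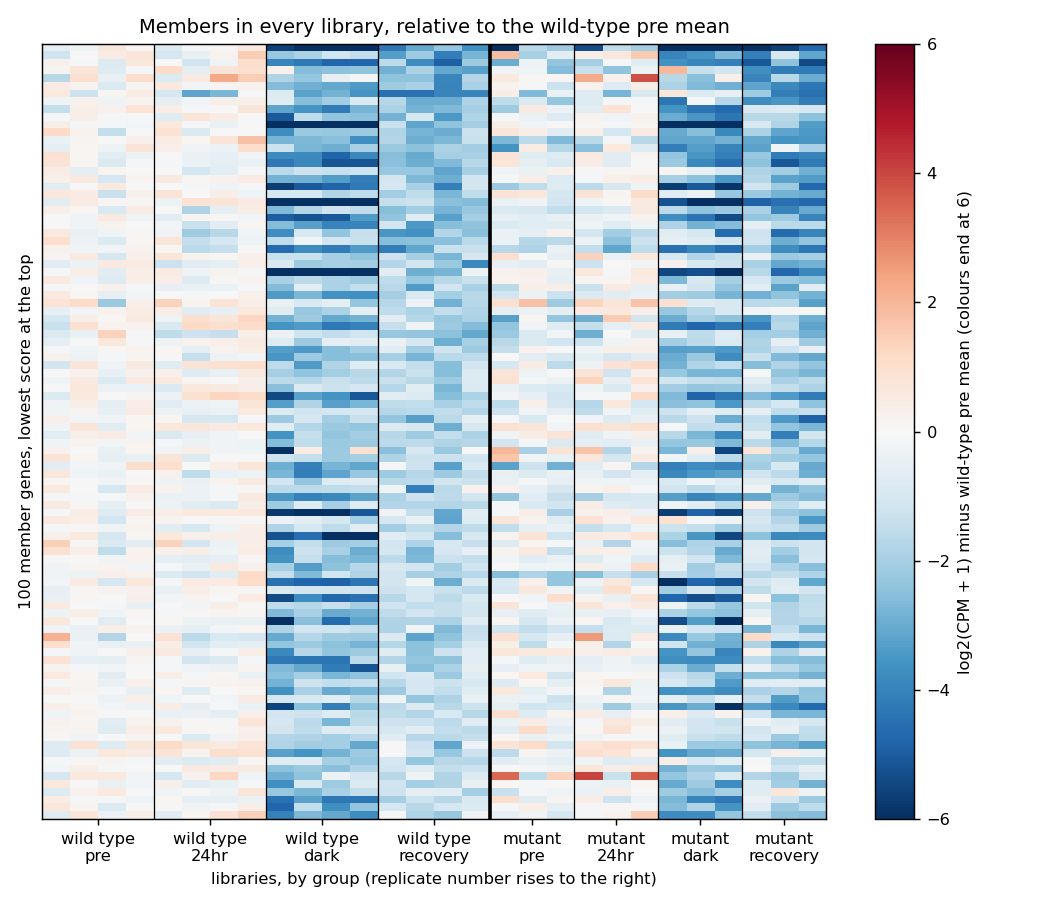
Difference in log2(CPM + 1) of each of the 100 members (rows, lowest score at the top) in each of the 28 libraries (columns, by group) from that member's wild-type mean at pre; blue is lower, red is higher, and colours end at 6. The dark and recovery columns are mostly blue in the wild type, where the rule fixed the stage means, and in most rows of the mutant, where recovery was below pre on average in 94 members.

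The mutant libraries asked whether the same genes were low at recovery in plants that played no part in choosing them. By group means most members were: the mean log2 level at recovery was below pre in 94 of the 100 and below 24hr in 99. It was lower than pre by at least 1 in 71 members, and lower than both pre and 24hr by at least 1 in 69. Over all genes tested, the mutant medians were -0.01 for recovery minus pre and -0.08 for recovery minus 24hr. Shares of all genes with a fall of at least 1 are given by pool below. The median member had 31.3 CPM at pre, 42.6 CPM at 24hr, 5.52 CPM at dark and 7.63 CPM at recovery. The other dark-lowered genes went from a median of 37.2 CPM at pre to 7.75 CPM at dark and back to 34.3 CPM at recovery.

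By pool, the median over members of recovery minus pre in log2 level was -0.99 in mutant replicate 3, -1.82 in replicate 4 and -1.64 in replicate 5, a mean of -1.49 ± 0.44 (SD, n = 3). In the same pools the median of the other dark-lowered genes was 0.04, -0.02 and -0.19, and that of all 24992 genes tested was -0.09, 0.00 and 0.05. Recovery lay below pre in 79, 90 and 96 members in replicates 3, 4 and 5, and in 74 members it did so in 3 of 3 pools. It was lower by at least 1 in 50, 78 and 68 members, against 4.81%, 5.64% and 5.81% of all genes tested. Among the other dark-lowered genes these shares were 7.21%, 11.8% and 13.2%. Replicate 3 thus stood closest to its starting level, and all 3 pools had the same direction. Against 24hr the medians were -1.09, -1.75 and -2.36.

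**Figure D2:**
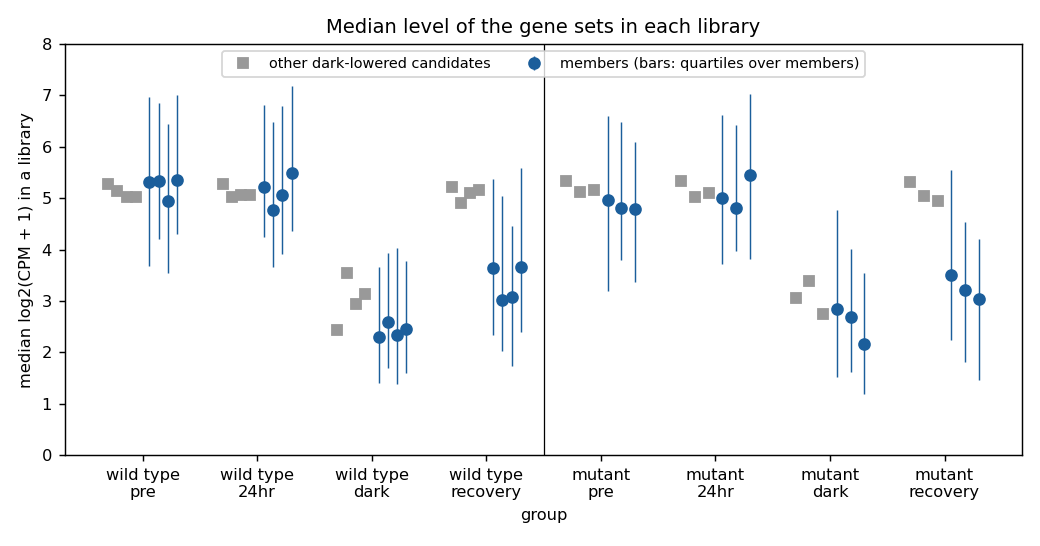
Median log2(CPM + 1) over the 100 members (blue circles; bars from the lower to the upper quartile over members) and over the other dark-lowered genes (grey squares) in each library, by group. At recovery the mutant member medians lay between 3.04 and 3.5, while the grey squares lay between 4.95 and 5.32.

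Single genes were tested in a fit across all 24992 tested IDs (edgeR's quasi-likelihood test, Benjamini-Hochberg adjusted p under 0.05). In mutant recovery against pre, 29 of the 100 members were lower and 0 higher, while of all genes tested 1.25% were called lower and 0.932% higher, and of the other dark-lowered genes 2.39% were called lower. At an unadjusted p under 0.05, 67 of the 100 members were lower and 0 higher. Of all 24992 genes tested, 1992 were lower and 1836 higher at that threshold. In mutant recovery against 24hr, 46 members were lower and 0 higher, against 2.94% lower and 2.38% higher among all genes tested and 3.86% lower among the other dark-lowered genes. Both tests called 28 members, and 47 were called in at least 1 of them. These joint counts were not made for all genes. In 47 members every mutant recovery library was below every mutant pre and 24hr library, against 5.78% of all genes tested and 8.85% of the other dark-lowered genes. The counts of calls fell most without mutant replicates 4 or 5. For recovery against pre, 8 members were called without replicate 4 and 10 without replicate 5, and for recovery against 24hr, 30 and 6. The fit estimated its spread from all 28 libraries, so the wild-type libraries that chose the members also entered these p-values. Without 1 wild-type pool, 20 to 28 members were called for recovery against pre and 32 to 52 against 24hr. A fit with only the groups compared called 1 member for recovery against pre and 9 against 24hr.

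**Figure D3:**
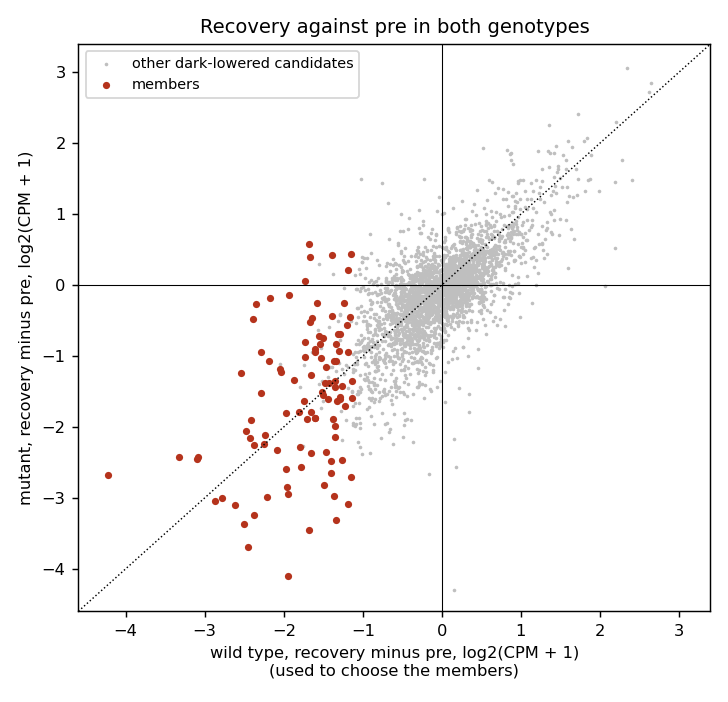
Recovery minus pre in log2(CPM + 1) in wild-type means (horizontal, used to choose the members) and mutant means (vertical) for the 100 members (red) and the other dark-lowered genes (grey); the dotted line marks equal values. Of the red points, 94 lie below 0 on the vertical axis, and the mutant median is -1.58 for members and -0.06 for the grey points.

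The dark and recovery samples came from the covered leaf and the pre and 24hr samples from the uncovered one, so a lasting difference between the leaves and a lasting effect of darkness cannot be told apart in recovery against pre. Age differs with it, since recovery was taken 96 h after pre. The uncovered leaf was compared with itself a day apart in mutant 24hr against pre. There edgeR's quasi-likelihood test called 0 members lower and 0 higher, with 0% of all genes tested called in either direction. The DESeq2 Wald test also called 0 members lower. Higher calls over the members in this contrast were counted in the main fit alone, which leaves out the pairing by pool. At an unadjusted p under 0.05, 0 of the 100 members were lower and 6 were higher. Of all 24992 genes tested, 315 were lower and 540 higher at that threshold, so the members' share of higher genes was above that of all genes. The median over members of 24hr minus pre was 0.33 in log2 level, with 68 members above 0, and by pool it was 0.11, 0.08 and 0.62 in mutant replicates 3, 4 and 5. The median of the other dark-lowered genes was -0.09.

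The fall in darkness was found in the mutant for most but not all members. By edgeR's quasi-likelihood test 73 of 100 were lower at dark than at pre and 0 were higher, against 28.9% lower and 26.6% higher among all genes tested. The other dark-lowered genes were called lower in 95.5%. The mutant difference dark minus pre had a median of -1.81 in log2 level over members, with a range from -6.96 to 0.85, and was below 0 in 92. For the other dark-lowered genes the median was -1.97. In 62 members every mutant dark library was below every mutant pre and 24hr library, against 23.2% of all genes tested and 89.0% of the other dark-lowered genes.

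Recovery against dark compared the same covered leaf 24 h apart. In the mutant, 34 members were higher at recovery than at dark, 13 were lower and 53 were not called, by edgeR's quasi-likelihood test. Among all genes tested 28% were called higher and 26.6% lower, and among the other dark-lowered genes 89.9% were called higher. The 34 members that rose were all among the 73 that had fallen in darkness. Both tests use the same dark libraries, so this overlap is not a separate result. In another 35 that had fallen, recovery against dark was not called. In 31 members every mutant recovery library was above every dark library, against 25.6% of all genes tested, and in 14 every one was below, against 32.9%. Among the other dark-lowered genes, 0.102% were called lower at recovery than at dark and 0.171% had every recovery library below. The median over members of recovery minus dark was 0.25 in log2 level in the mutant, and 0.44, -0.02 and 0.30 in replicates 3, 4 and 5, against 1.88 for the other dark-lowered genes.

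The share of its fall that a gene regained was taken as recovery minus dark divided by pre minus dark, on the log2 level, in the mutant. It was computed for the 74 members and 2673 other dark-lowered genes whose mutant fall was at least 1. Members regained a median of 36.2%, with quartiles of -4.99% and 62.1%, and the other genes a median of 97.4%, with quartiles of 79.3% and 111%. Under 50% was regained by 49 of the 74 members and by 6.62% of the other genes. By means in plain CPM, 22 members stood below their dark level, against 0.823% of the other genes. TMM scaling shifts mutant recovery minus dark by 0.18. By edgeR's test, 4 members called lower at dark were called lower still at recovery. By pool, recovery in plain CPM was below dark in 12 of 62 members in replicate 3, 29 of 76 in replicate 4 and 21 of 74 in replicate 5. By pool the member median was 56.0% in mutant replicate 3, 28.4% in replicate 4 and 34.5% in replicate 5, and that of the other genes was 101%, 98.4% and 91.4%. The members' median was therefore lower in each pool.

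**Figure D4:**
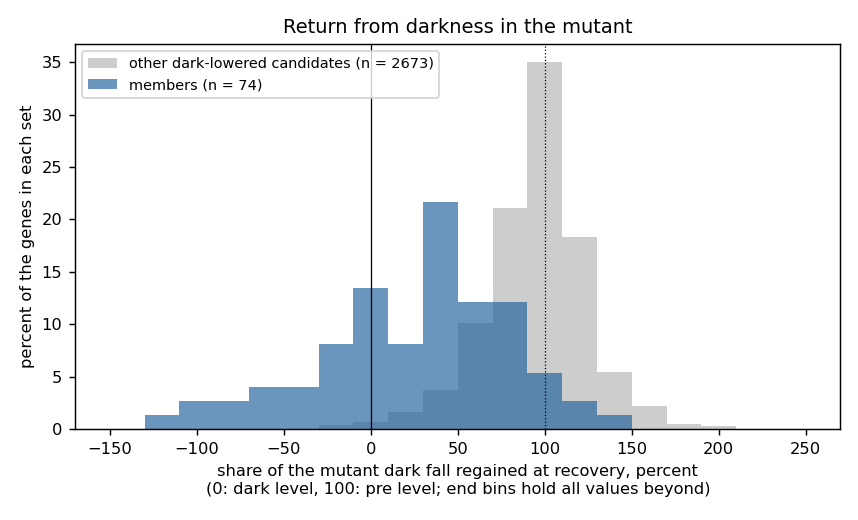
Share of the mutant fall from pre to dark that was regained at recovery (percent of the fall in log2(CPM + 1), horizontal) for members and for the other dark-lowered genes with a mutant fall of at least 1; bars give the percent of each set, and the end bins hold all values beyond. The members spread around a median of 36.2%, while the other genes gather near 100%, with a median of 97.4%.

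The members are described in 3 groups by their wild-type course through recovery. In the wild type, whose values chose them, 42 members rose from dark to recovery by at least 1 in log2 level, 29 rose by less than 1, and 29 were lower at recovery than at dark. The first 42 had started high and fallen far: their median went from 68.7 CPM at pre to 2.81 CPM at dark and 22.1 CPM at recovery in the wild type. In the mutant the same 42 went from 40.9 to 4.23 and 14.4 CPM, with 41 called lower at dark, against 28.9% of all genes tested, and 26 called higher at recovery than at dark, against 28%. In the mutant their median at recovery stood above dark and below pre. The wild type had the same order, but there the rule and the grouping fixed it.

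The 29 members that were below their dark level at recovery in the wild type had a wild-type median of 21.3 CPM at pre, 6.97 CPM at dark and 3.69 CPM at recovery. In the mutant it was 17.1 CPM at pre, 9.69 CPM at dark and 4.55 CPM at recovery. In the mutant, 8 of these 29 (27.6%) were called lower at dark than at pre, near the 28.9% of all genes tested. Lower calls at recovery against dark were made in 10 (34.5%), not far from the 26.6% of all genes tested, and this difference was not tested. The median mutant difference was -0.36 for dark minus pre and -1.32 for recovery minus dark. In log2 level with plain CPM, the larger median mutant decrease thus lay between dark and recovery. In median CPM the step from pre to dark was the larger. The remaining 29 lay between, at 25, 5.31 and 7.13 CPM at pre, dark and recovery in the mutant, with 24 called lower at dark, against 28.9% of all genes tested, and 7 called higher at recovery than at dark, near the background of 28%.

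For the same 3 groups in the mutant, the median of recovery minus pre was -1.58 in the 42 members with the large wild-type rise, -1.55 in the 29 with the small one and -1.70 in the 29 with none, and 14, 10 and 5 members were called lower, against 1.25% of all genes tested. Differences between the 3 groups were not tested. Scaling matters for these courses, because library sizes scaled by the TMM method shift dark minus pre by -0.37 for wild-type and by -0.17 for mutant libraries, and recovery minus dark by 0.31 and 0.18. With plain CPM, recovery lay above dark in 71 members in wild-type means and in 55 in mutant means, and with TMM scaling in 78 and 62. Recovery minus pre moved by less than 0.1 in both genotypes.

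Across the 100 members, wild-type and mutant differences were compared gene by gene; they share no library. For dark minus pre Pearson's r was 0.81 and Spearman's rho 0.78. For recovery minus dark they were 0.68 and 0.67, and for recovery minus pre 0.35 and 0.32. The choice of members narrowed the wild-type range of recovery minus pre, which is -4.22 to -1.14 here, and members are not replicates, so these values are a description.

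Levels of the genotypes are given side by side with no test, since wild-type levels chose the members. The mutant mean CPM was below the wild-type mean in 78 of 100 members at pre, in 57 at 24hr, in 43 at dark and in 59 at recovery. At pre the rule required high wild-type levels, and 9 members were under 5 CPM in the mutant there. The mutant libraries themselves met the rule's conditions on pre, dark and the fall between them in 66 members.

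The wild type gives values free of the choice when the members are chosen again with 1 pool left out and are read in that pool. Between 73 and 80 of the 100 members were chosen again. In the pool left out, the median of recovery minus pre over the newly chosen genes was -0.80 in replicate 3, -1.69 in replicate 4, -1.45 in replicate 5 and -1.19 in replicate 6. Recovery was below pre in 79, 93, 91 and 97 of 100 genes. Among the other genes that qualified with that pool left out, the medians were -0.02, -0.20, 0.13 and 0.15, and recovery was below pre in 50.8%, 63.1%, 40.2% and 37.7%. The lower level was thus present in each pool that had not been used, and smallest in replicate 3, as also among the mutant pools. Replicate 3 of both genotypes carries the leading letter a in the sample descriptions and replicate 5 of both carries letter d; some numbers in those descriptions are repeated, so the letters carry doubt, and their part in the size was not tested.

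The gene IDs give each gene's series, A01 to A10 or unplaced scaffolds. Of the members, 17 had A05 IDs, against 9.62% of all genes tested and 9.67% of the other dark-lowered genes, and 15 had A06 IDs, against 10.5% and 10.1%. A09 IDs were fewer, with 8 members against 14.2% of each. A03 IDs numbered 15, against 14.5% and 15.3%.

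Since the IDs carry no names, 4 members are described singly, taken by a rule from mutant tests: the 2 with the largest fall from pre to recovery and the 2 with the largest rise from dark to recovery, each among members that passed the test, reached 10 CPM and had libraries that did not overlap. The rule had 29 and 18 members to take from. The sizes of these changes and the separation of the 2 stages compared were therefore conditions of being named. BraA03004184 had 14.9, 14.3 and 2.03 CPM at pre in mutant replicates 3, 4 and 5, and 6.20, 2.48 and 14 CPM at 24hr. At dark it had 70.0, 6.35 and 7.27 CPM, and at recovery 0.420, 0 and 0 CPM. The recovery libraries held 5, 0 and 0 counts, and a count of 0 allows up to 3 counts, or 0.216 CPM in replicate 4 and 0.313 CPM in replicate 5. All 3 recovery libraries were below all 9 mutant libraries of the other stages, so that in the mutant this gene was low at recovery alone.

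The fitted log2 fold change of BraA03004184 for mutant recovery against pre was -6.03 (SE 1.47, adjusted p 0.0275 by edgeR's quasi-likelihood test), lower in 3 of 3 pools. Its size depends on the prior count, because 2 of the recovery libraries were at 0, and over 13 alternatives it ranged from -9.47 without mutant replicate 3 to -5.04 without mutant replicate 4. Mutant dark against pre had a log2 fold change of 1.37 (SE 0.87, adjusted p 0.184). The recovery call was lost when any mutant pool was left out, with adjusted p-values of 0.0823, 0.215 and 0.0993 without replicates 3, 4 and 5, and at 0.15 with only the compared groups in the fit; over the 13 alternatives the adjusted p ranged from 7.48e-05 to 0.215. In the wild type it had 19.3, 29.7, 9.81 and 16.0 CPM at pre in replicates 3 to 6, then 21.2, 2.03, 2.31 and 2.42 CPM at dark and 1.48, 3.89, 1.21 and 0.902 CPM at recovery. Replicate 3 was the highest at dark in both genotypes.

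BraA05003987 had 15.4, 19.8 and 3.30 CPM at pre in mutant replicates 3 to 5 and 15.7, 18 and 15.7 CPM at 24hr. It had 6.04, 1.09 and 1.02 CPM at dark and 0.756, 0.36 and 0 CPM at recovery, from 9, 5 and 0 counts. Each pool was lower at recovery than at dark, and the recovery libraries did not overlap with those of any other mutant stage. In edgeR's test its log2 fold change was -4.96 (SE 0.99, adjusted p 0.0104) for recovery against pre and -2.68 (SE 1.09, adjusted p 0.0408) for recovery against dark. The call against pre was lost without mutant replicate 4 (adjusted p 0.136) and with only the compared groups in the fit (0.15), with a range from 8.5e-05 to 0.15 over 13 alternatives. In the wild type, recovery values were 8.12, 2.96, 0.0932 and 6.22 CPM in replicates 3 to 6 against 1.66, 1.22, 1.27 and 0.101 CPM at dark, so recovery was above dark in replicates 3, 4 and 6 and below it in replicate 5.

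BraA06003357 was among the deepest falls and the largest returns. In mutant replicates 3 to 5 it had 260, 174 and 211 CPM at pre, 0.901, 0.766 and 0.510 CPM at dark, and 105, 56.7 and 18.5 CPM at recovery. The wild type went from 256, 192, 187 and 178 CPM at pre in replicates 3 to 6 to 1.41, 1.01, 0 and 0.404 CPM at dark and to 78.9, 21.8, 37.3 and 46.5 CPM at recovery. Every recovery library lay between the dark and the pre libraries of its genotype, in the wild type among values that chose the members. In edgeR's test of the mutant libraries, the log2 fold changes were -8.31 (SE 0.68, adjusted p 1.78e-09) for dark against pre, 6.48 (SE 0.65, adjusted p 2.32e-08) for recovery against dark and -1.83 (SE 0.46, adjusted p 0.0349) for recovery against pre.

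BraA05003445 had a similar course in group means, at a lower level. In mutant replicates 3 to 5 it had 42.9, 38.9 and 91.4 CPM at pre, 0.631, 0.109 and 0.383 CPM at dark, and 47.5, 7.06 and 14.5 CPM at recovery. Recovery was above pre in replicate 3 and below it in replicates 4 and 5, so the mutant groups overlapped. In edgeR's test its log2 fold change was 6.00 (SE 0.76, adjusted p 4.95e-07) for recovery against dark, and -1.36 (SE 0.50, adjusted p 0.166) for recovery against pre, which did not pass. With the plant pool as a replicate block the latter was -1.55 with an adjusted p of 0.0456, which passed. In the wild type it had 32.0, 47.7, 44.1 and 54.8 CPM at pre and 13.3, 21, 14 and 22.8 CPM at recovery in replicates 3 to 6. These did not overlap, but they are values that chose the members, so the separation is a description only. The rises of both genes from dark to recovery passed in all 13 alternatives.

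**Figure D5:**
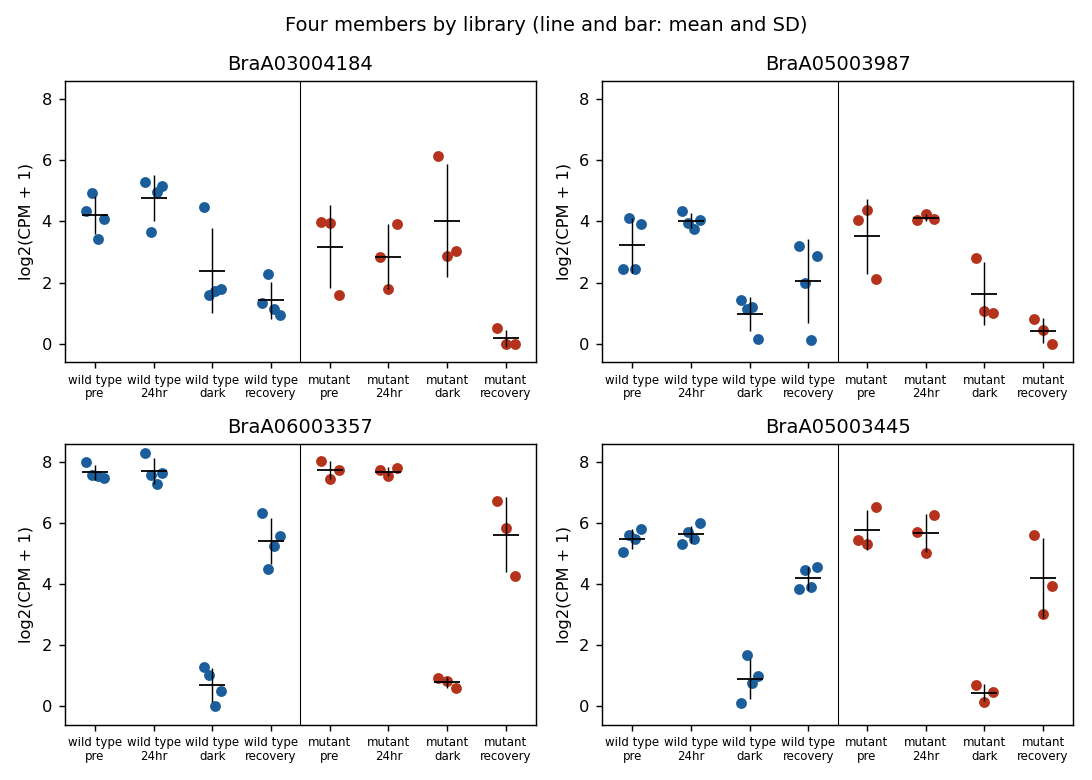
log2(CPM + 1) of the 4 members described singly in each library, by group, with the group mean and SD as a line and bar (blue: wild type; red: mutant). The 2 upper genes were lowest at recovery in the mutant. The 2 lower genes fell to near 0 at dark and rose again at recovery, to group means below pre.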

How the data were processed

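The authors deposited raw counts, whole numbers per gene ID and library with no normalization; bcl2fastq 2.17.1.14, Trimmomatic 0.36, Bowtie2 and HTSeq are named, with no settings, per the submitters' processing notes. Genome build, annotation and use of strand are not given in the sources used here, so genes with near-identical copies or overlapping neighbours have uncertain counts. None of the 48826 IDs matched the RefSeq gene table (0 matches), and 0 columns were unassigned.

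The members and lists were chosen with earlier results of these data known. CPM used plain library totals. Tests used edgeR 4.0.16 in R 4.3.3 (filterByExpr, TMM, 8 group means over 28 libraries, bias-adjusted quasi-likelihood fit), which kept 24992 IDs, with Benjamini-Hochberg adjustment over all of them; the script was tested on simulated data. The SE, derived from the test, equals the size of the log2 fold change over the root of F. Wild-type contrasts were not tested because the rule used them. Per the labels, libraries of one genotype with one number share their plants. After group means were removed, mutant recovery and pre libraries correlated across genes at a median of 0.25 within pools and -0.16 between pools. For mutant 24hr and pre libraries these medians were 0.58 and -0.07. With the plant pool as a replicate block, 0 members were called lower in mutant 24hr against pre, and higher calls over the members were not counted. Alternatives were DESeq2 1.42.0, RLE scaling, no filter, only the compared groups, a replicate block, each pool left out, 4 changes of the rule, lists of 50 and 200 genes, and, added after seeing the data, edgeR's older quasi-likelihood estimate. P-values measure the spread between plant pools, estimated over both genotypes. Intervals from a count of 0 cover counting error only.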

Additional observations from a re-analysis of the deposited data

Results flagged for a closer look

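Sets of 4 wild-type values were examined for a value far from the other 3, on 25 sets, and chance gives about 1 in 20. BraA03004184 had 21.2 CPM at dark in wild-type replicate 3, against 2.03 to 2.42 CPM in the other 3 pools; mutant replicate 3 was also the highest mutant library at dark. BraA06003357 had 256 CPM at pre in wild-type replicate 3, against 178 to 192 CPM. The median log2 level over the members at pre was 4.95 in wild-type replicate 5, against 5.32 to 5.35 in the others.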

How the results depend on the processing

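For mutant recovery against pre, 29 members were called lower; fitting just the compared groups gave 1, and leaving out 1 pool gave 8 (without mutant replicate 4) to 29. For recovery against 24hr the count of 46 became 9 with only the compared groups and ranged from 6 (without mutant replicate 5) to 52. The cause was not tested, although those fits hold fewer libraries. With the plant pool as a replicate block, the counts were 39 for recovery against pre, 55 against 24hr, 73 for dark against pre and 36 higher for recovery against dark; the block changed none of these counts by more than 1.5 times. Of the 5 mutant contrasts of each of the 4 named IDs, it changed 1 call, recovery against pre of BraA05003445, to an adjusted p of 0.0456. DESeq2 called 40 members lower for recovery against pre and 53 against 24hr, and edgeR's older estimate 25 and 40. Lists of the 50 and 200 lowest scores had 36% and 23.5% called, against 29%. Changing the rule kept 81 to 98 of the 100 members, with 27 to 30 called and a median mutant difference from -1.60 to -1.47. Without 1 mutant pool that median ranged from -1.79 to -1.45. Dark against pre ranged from 60 to 82 members and recovery against dark from 24 to 41 without 1 pool. The older estimate was chosen after seeing the data.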
